A study of Homo sapiens with 6 samples.

Results

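The centrosome and spindle microtubule genes are 47 genes whose proteins build centrioles, the pericentriolar material, the gamma-tubulin complex, augmin, the CKAP5-TACC plus-end machinery, the spindle poles and the spindle midzone. They were taken by gene symbol from the deposited expression table, and all 47 were found among its 38637 genes. The rule is a list of symbols and holds no measured value, but the list was drawn up with earlier results of these data known. All 47 passed the filter of a mean of at least 1 TPM, a level per transcript length that is scaled to the same total in each library and 13980 genes in all were tested.

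The samples were 6 PolyA-Seq libraries of HCCLM3-SR, a sorafenib-resistant derivative of the hepatocellular carcinoma line HCCLM3. Sorafenib is a multikinase inhibitor used against liver cancer, and all 6 cultures received 5 µM of it. In the cDCBLD2 knockdown group, 3 libraries came from cells given si-cDCBLD2 for 3 days, and in the control group 3 libraries came from cells given siCTRL for the same time. cDCBLD2 is a circular RNA made from the DCBLD2 gene, and it is not itself a row of the gene table. The labels name a single siRNA against cDCBLD2 and do not say whether libraries of a group came from separate cultures, so p-values measure the spread between these libraries, which may be technical.

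The centrosome is a pair of centrioles embedded in pericentriolar material, and it is duplicated once per cell cycle under the control of the kinase PLK4. At mitosis it recruits gamma-tubulin ring complexes, which seed microtubules, while augmin (the HAUS complex) seeds further microtubules from the sides of existing ones and CKAP5 with the TACC proteins drives growth at plus ends. Transcripts of many spindle and cytokinesis proteins peak in G2 and M phase, and bulk RNA cannot tell fewer cells in a phase from less RNA per cell.

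Whole reads could be recovered from the ratios of TPM values between libraries for 100% of 17285 genes, and recovered totals ranged from 17492673 to 23064302 reads. Single members had between 34 and 12396 recovered reads in a library. The siRNA was aimed at the circular RNA, so the host gene DCBLD2 is no direct check of the labels. The paper saw no clear change of DCBLD2 mRNA or protein shared by its 3 resistant lines after the knockdown. Here DCBLD2 was at 71.5, 48.5 and 50.7 TPM in the controls and 58.1, 25.9 and 31.6 TPM after knockdown, with overlap. Its limma log2 fold change was -0.61 (adjusted p = 0.25 without and 0.014 with the replicate block described below). Of the 7 hepatocyte markers, ALB, APOA1 and TTR were at or below 1.64 TPM in every library, and HNF4A was at 22.9 to 31.3 TPM. Of the 4 epithelial markers, KRT8 was at 2999 to 4413 TPM, KRT18 at 1800 to 2555 TPM and CDH1 at 37.7 to 62.0 TPM. EPCAM, the remaining one, was at or below 0.323 TPM in every library. Of the 23 marker genes of hepatocytes, epithelium, fibroblasts, endothelium and leukocytes, 10 were tested. With the replicate block described next, APOB was called lower (-0.80) and HNF4A (0.30), KRT8 (0.32), KRT18 (0.26) and COL1A1 (1.06) higher, and their part in the changes of the members was not tested. The fibroblast markers summed to 1.43 to 3.49 TPM in the controls and 3.76 to 14.5 TPM after knockdown, with the highest sum in knockdown replicate 1 and COL1A2 listed at 0 in the other 5 libraries. The endothelial markers summed to at most 5.79 TPM and the leukocyte markers to at most 2.45 TPM, and CD3E was listed at 0 throughout. Libraries with replicate number 1 stood apart in both groups. Deviations from the group means correlated between same-numbered libraries across all genes tested (Pearson's r of 0.56, 0.34 and 0.36). Among libraries of unlike number, knockdown replicate 2 with control replicate 3 (0.21) and knockdown replicate 3 with control replicate 2 (0.25) were also positive, and the 4 combinations with a replicate 1 were negative. The labels do not say that a number marks a shared day, culture or batch. The numbers were taken to pair the libraries on these correlations alone, most calls on members depend on that choice, and the fit with the replicate number as a block is given beside the fit without it. Values listed for a group below follow replicate numbers 1, 2 and 3.

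Most members were lower after knockdown. Of the 47 members, 44 had a negative log2 fold change, where 8718 of 13980 genes tested were negative. The median was -0.57, against -0.08 over all genes tested. With the replicate block, 33 members passed an adjusted p of 0.05 in the lower direction and 0 in the higher direction, where 25.0% of all genes tested were lower and 9.94% higher. At an unadjusted p under 0.05 the blocked limma fit had 1 member higher, and limma-voom with the block on the recovered reads called 31 members lower and 2 higher (TUBGCP6 and NUMA1), where its background was 20.5% lower and 17.5% higher. The 3 same-numbered pairs gave median differences of -0.48, -0.52 and -0.60 over the members. In every pair 40 members were lower, a count that was not made over all genes. The blocked count moved with the pairs used. Leaving out replicate 1, 2 or 3 gave 33, 21 or 13 members lower, where 28.0%, 7.75% or 3.19% of all genes were lower.

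Without the block, the limma fit called only CKAP5 lower and no member higher. In that fit 0.629% of all genes tested were lower and 0.250% higher, and at an unadjusted p under 0.05 there were 23 members lower (19.4% of all genes) and 0 higher. This count rested on single libraries. Leaving out knockdown replicate 1 gave 28 members lower (19.8% of all genes), and leaving out any of the other 5 libraries gave 0, with no call among all genes and 15 to 23 members (11.2% to 15.5% of all genes) lower at an unadjusted p under 0.05. The study's additional threshold of an absolute log2 fold change over 1 was passed by CKAP5 without the block (0.0787% of all genes) and by CEP192, CKAP5, ASPM and ECT2 with it (0.751%). The paper set that threshold on DESeq2 fold changes, and here it was set on log2(TPM + 1). CKAP5 was just past it (-1.001) and CEP55 just short of it (-0.99986). With limma-voom and the block CKAP5 (-0.92) did not pass, and CEP192, ASPM, ECT2, CEP120, CEP152 and CEP350 did. The TPM ranges of the groups did not overlap for 22 members that were lower and for 1 that was higher, TUBGCP6, where the background was 22.3% and 9.58% of all genes. In the text below, "fell" and "rose" are used for an adjusted p under 0.05 in the fit with the block. In that fit 25.0% of all genes tested fell and 9.94% rose, and each role-group count below is to be read beside these shares.

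**Figure D1:**
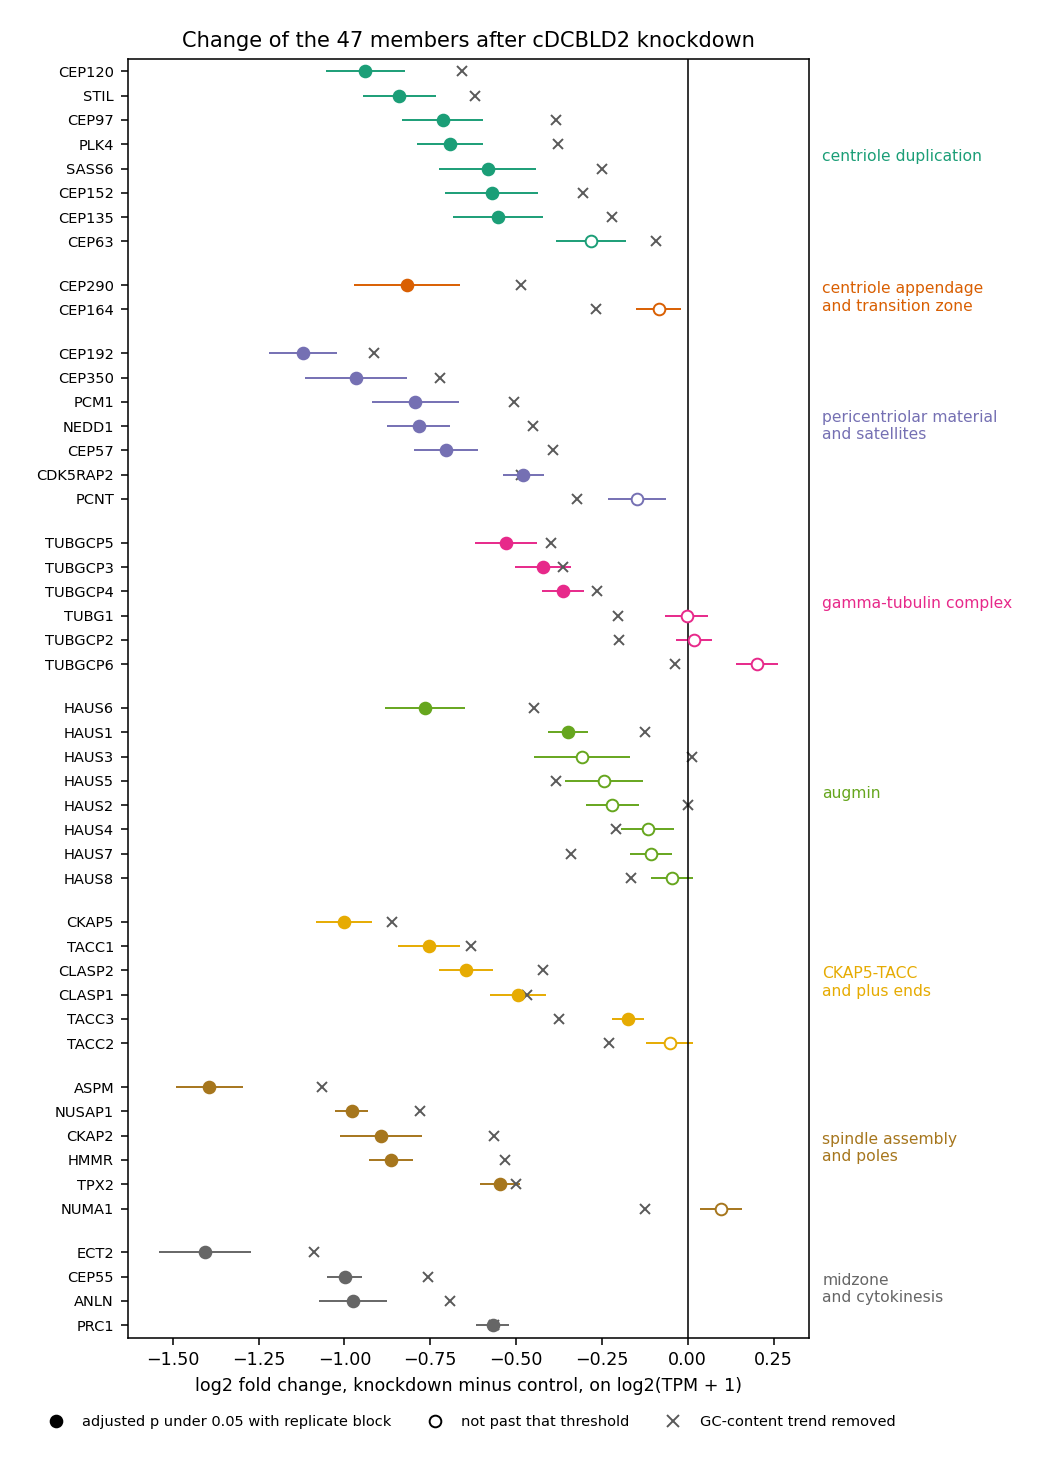
Log2 fold change (x axis, knockdown minus control on log2(TPM + 1)) of each of the 47 members, in role groups on the y axis. Circles are the estimates, bars their SE with the replicate block, filled circles mark an adjusted p under 0.05 with the block, and crosses give the estimate after removal of the GC-content trend. Filled circles, 33 in all, lie left of 0, and the estimates range from -1.41 for ECT2 to 0.20 for TUBGCP6.

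Summed over the 47 members, the level was 1870, 1399 and 1451 TPM in the controls and 1333, 1080 and 1083 TPM after knockdown. Control replicate 1 held the highest value of the 6 libraries for 40 of the 47 members, and knockdown replicate 2 the lowest for 27. The members were higher in replicate 1 than in the mean of replicates 2 and 3 by a median of 0.54 in the knockdown group and 0.40 in the control group on the log2 scale, against 0.08 and 0.04 over all genes tested. The block takes such a height shared by a same-numbered pair out of the error.

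**Figure D2:**
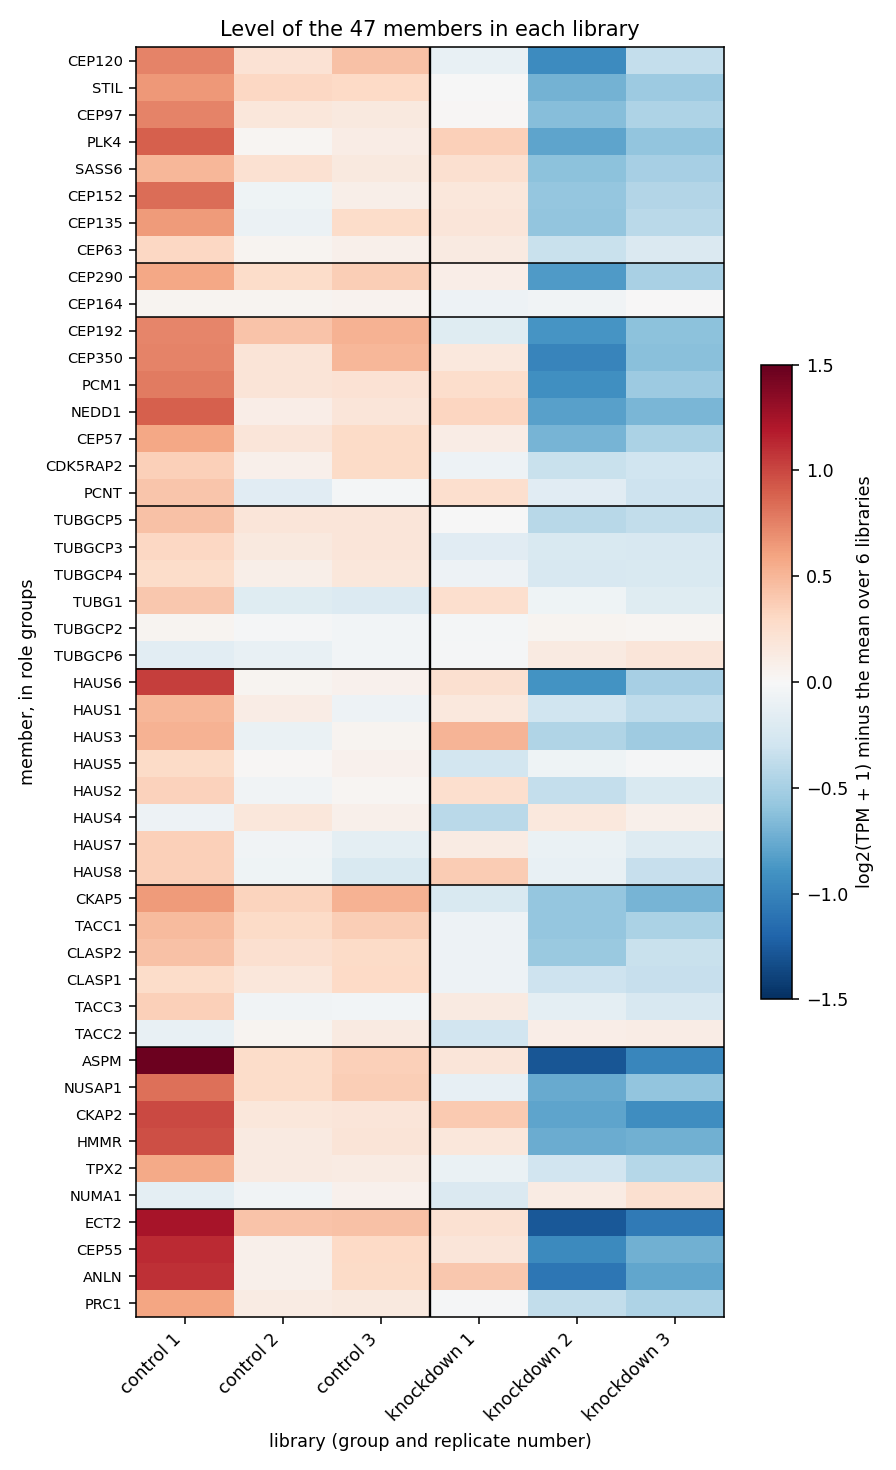
Level of each member (rows, in role groups separated by lines) in each of the 6 libraries (columns, 3 control then 3 knockdown), as log2(TPM + 1) minus the gene's mean over the 6 libraries. Control replicate 1 holds the highest value in 40 rows and knockdown replicate 2 the lowest in 27.

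Promoter windows of 250 bases before to 50 bases after the start, from RefSeq on GRCh38.p14, were held for 43 of the 47 members. Those of PCM1, TACC1, TPX2 and TUBGCP4 were not used here. Both strands were searched for TTTGAA, used here for the cell-cycle homology region bound by the DREAM complex, for the CCAAT box (CCAAT) bound by NF-Y, and for the E2F core GCGGGAA. No matches overlapped in the windows shown. Of the 59 windows of members, 35.6% held TTTGAA, 45.8% CCAAT and 22% GCGGGAA, against 15.2%, 34.6% and 6.55% of all 35116 windows and 10.3%, 34.6% and 9.62% of the 15006 windows of genes tested. The TTTGAA letters were in a window of 4 of 4 midzone and cytokinesis genes, 3 of 5 spindle assembly and pole genes, 3 of 5 CKAP5-TACC and plus-end genes, 4 of 8 centriole duplication genes, 3 of 6 pericentriolar material and satellite genes, 1 of 2 appendage and transition zone genes, 1 of 8 augmin genes and 0 of 5 gamma-tubulin complex genes, against 13.3% of 10508 genes tested. They were found for 17 of the 29 members with a window that fell with the block and for 2 of the 14 others. For the CCAAT box these counts were 16 and 6, and for the E2F core 6 and 6. Such splits were not made for all genes tested, so they have no background. They also follow calls that change with removal of the GC-content trend. PCM1, TACC1, TPX2 and TUBGCP4, without a window here, fell too. The E2F core was in a window of 5 of 8 augmin genes, against 12.6% of genes tested. CEP350, CKAP2, SASS6, TUBGCP3, HAUS6 and TACC3 fell and held none of these motifs, while HAUS8 and TACC2 did not fall and held TTTGAA. These are counts of letters and show no binding.

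The windows of the 4 members past both thresholds with the block are printed because they carry the largest changes on log2(TPM + 1). That of TUBG1 is beside them as an abundant member that did not pass. Capitals mark matches to the motifs on either strand, and each window is read 5′ to 3′ on the strand of its gene. They lie at chr11:46846231-46846530 (CKAP5, minus strand), chr18:12991112-12991411 (CEP192, plus strand), chr1:197146620-197146919 (ASPM, minus strand), chr3:172750476-172750775 (ECT2, plus strand, the upstream of its 2 windows) and chr17:42609433-42609732 (TUBG1, plus strand).
CKAP5: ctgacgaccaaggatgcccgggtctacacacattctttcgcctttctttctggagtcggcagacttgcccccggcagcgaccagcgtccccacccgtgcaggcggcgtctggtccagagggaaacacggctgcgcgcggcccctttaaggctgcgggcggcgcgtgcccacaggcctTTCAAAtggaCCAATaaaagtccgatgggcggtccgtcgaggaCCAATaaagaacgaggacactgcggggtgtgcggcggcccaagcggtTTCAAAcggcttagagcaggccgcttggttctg
CEP192: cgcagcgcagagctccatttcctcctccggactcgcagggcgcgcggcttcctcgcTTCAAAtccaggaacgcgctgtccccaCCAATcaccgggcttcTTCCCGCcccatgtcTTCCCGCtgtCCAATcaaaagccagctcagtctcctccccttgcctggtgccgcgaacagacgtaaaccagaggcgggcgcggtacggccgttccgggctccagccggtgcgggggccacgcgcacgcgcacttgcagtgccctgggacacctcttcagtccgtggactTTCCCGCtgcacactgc
ASPM: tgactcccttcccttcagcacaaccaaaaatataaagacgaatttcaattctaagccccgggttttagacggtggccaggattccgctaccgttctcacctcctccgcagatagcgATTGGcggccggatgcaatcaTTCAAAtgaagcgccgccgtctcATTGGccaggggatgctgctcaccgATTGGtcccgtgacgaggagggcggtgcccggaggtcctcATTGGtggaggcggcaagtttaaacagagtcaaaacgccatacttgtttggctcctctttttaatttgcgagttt
ECT2: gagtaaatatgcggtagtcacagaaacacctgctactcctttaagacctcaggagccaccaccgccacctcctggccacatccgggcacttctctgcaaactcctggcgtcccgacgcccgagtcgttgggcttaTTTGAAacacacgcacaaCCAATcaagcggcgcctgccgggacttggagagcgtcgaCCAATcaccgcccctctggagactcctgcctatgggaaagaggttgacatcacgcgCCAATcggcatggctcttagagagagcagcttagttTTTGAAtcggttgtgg
TUBG1: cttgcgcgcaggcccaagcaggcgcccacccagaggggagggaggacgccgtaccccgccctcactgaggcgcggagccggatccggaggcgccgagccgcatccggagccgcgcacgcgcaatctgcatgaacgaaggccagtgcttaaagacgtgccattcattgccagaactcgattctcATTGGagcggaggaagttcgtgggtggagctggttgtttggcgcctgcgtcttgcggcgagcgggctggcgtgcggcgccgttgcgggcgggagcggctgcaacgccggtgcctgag
CKAP5 held 2 TTTGAA matches and 2 CCAAT boxes, CEP192 held 1 and 2 with 3 E2F cores, ASPM held 1 and 4, and ECT2 held 2 and 3. TUBG1 held 1 CCAAT box and neither of the other motifs. The CCAAT boxes of ASPM and of TUBG1 all lay on the reverse strand, as ATTGG.

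Of the 8 centriole duplication genes, 7 fell with the block, with a median log2 fold change of -0.64 for the 8. With the GC-content trend removed and the block, 4 were called lower (median -0.34), where 30.0% of all genes were. SASS6, CEP152 and CEP135 no longer passed there. Mean levels were low, from 1.15 to 6.86 TPM, with 34 to 444 recovered reads per library. CEP120, which is needed for centriole assembly and elongation, was at 7.58, 4.94 and 5.96 TPM in the controls and 3.74, 1.66 and 2.98 TPM after knockdown. The groups did not overlap, although knockdown replicate 1 came within 1.2 TPM of the lowest control. Its log2 fold change was -0.94 ± 0.12 (SE with the block), with an adjusted p of 0.093 without and 0.0065 with the block.

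STIL, the partner through which PLK4 starts a new centriole, was at 10.2, 7.90 and 7.81 TPM in the controls and 6.14, 3.37 and 3.91 TPM after knockdown. Every knockdown library lay below every control, and the change was -0.84 ± 0.11 (adjusted p = 0.087 without and 0.0066 with the block). PLK4, the kinase that limits centriole number, had 12.6, 6.44 and 6.83 TPM in the controls and 8.29, 3.20 and 3.82 TPM after knockdown. Knockdown replicate 1 lay above control replicates 2 and 3, so the groups overlapped, yet each knockdown library was below its same-numbered control. PLK4 fell by 0.69 ± 0.10 on the log2 scale with the block (limma, adjusted p = 0.0077), and did not pass without it (adjusted p = 0.27, limma). SASS6, which forms the cartwheel of the new centriole, CEP152, which recruits PLK4, CEP135 and CEP97 also fell, by 0.55 to 0.71. CEP63, a partner of CEP152, had a change of -0.28 (adjusted p = 0.082 with the block) and did not pass.

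Of the appendage and transition zone proteins, CEP290 fell and CEP164 did not pass. CEP290, a gatekeeper of the ciliary transition zone, was at 5.03, 3.91 and 4.23 TPM in the controls and 3.35, 1.25 and 1.89 TPM after knockdown, with no overlap. The change was -0.82 ± 0.15 (adjusted p = 0.12 without and 0.014 with the block). CEP164, a distal appendage protein, had 14.4, 14.5 and 14.6 TPM in the controls and 13.3, 13.5 and 14.1 TPM after knockdown. Its groups did not overlap, but they lay 0.312 TPM apart, and the change of -0.09 ± 0.07 did not pass (adjusted p = 0.35 with the block).

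Pericentriolar material and satellite genes fell in 6 of 7 cases, with a median of -0.78. CEP192, the scaffold that recruits PLK4, gamma-tubulin and Aurora A to the centrosome, was at 17.2, 13.8 and 14.8 TPM in the controls and 8.70, 4.95 and 6.15 TPM after knockdown. The highest knockdown library lay 5.07 TPM below the lowest control. The mean was 15.3 ± 1.76 TPM (SD, n = 3) in the controls and 6.60 ± 1.91 TPM (SD, n = 3) after knockdown, the log2 fold change was -1.12 ± 0.10, and the adjusted p was 0.054 without and 0.0044 with the block.

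CEP350, a large centrosomal protein that anchors microtubules, was at 6.90, 4.38 and 5.65 TPM in the controls and 4.23, 1.37 and 2.05 TPM after knockdown. Knockdown replicate 1 came close to the lowest control, but the groups did not overlap, and the change was -0.97 ± 0.15 (adjusted p = 0.12 without and 0.0092 with the block). CDK5RAP2, the most abundant of the 7, tethers gamma-tubulin complexes. It had 42.2, 34.4 and 40.2 TPM in the controls and 30.9, 25.6 and 26.4 TPM after knockdown, and it fell by 0.48 ± 0.06 without overlap (adjusted p = 0.077 without and 0.0066 with the block). NEDD1, the adaptor that brings the gamma-tubulin complex to the centrosome and to augmin, fell by 0.78, PCM1, the main satellite protein, by 0.79 and CEP57 by 0.70. The scaffold PCNT had a change of -0.15 and did not pass (adjusted p = 0.22 with the block).

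The gamma-tubulin complex did not move as a whole. Its complex components TUBGCP3, TUBGCP4 and TUBGCP5 fell, while gamma-tubulin itself (TUBG1), TUBGCP2 and TUBGCP6 did not pass. TUBGCP5 was at 7.86, 6.45 and 6.41 TPM in the controls and 5.53, 3.92 and 4.07 TPM after knockdown, and TUBGCP3 was at 9.21, 8.11 and 8.38 TPM and 6.34, 6.06 and 6.01 TPM. Neither overlapped between groups. TUBGCP5 changed by -0.53 ± 0.09 (adjusted p = 0.11 without and 0.011 with the block) and TUBGCP3 by -0.42 ± 0.08 (adjusted p = 0.078 and 0.015).

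TUBG1 was the most abundant gene of the complex, at 103, 68.4 and 67.2 TPM in the controls and 92.6, 74.2 and 68.5 TPM after knockdown. Replicate 1 was the highest library in both groups, and the groups overlapped. The change was -0.0032 with an SE of 0.06 with the block (adjusted p = 0.97). After removal of the GC-content trend the change of TUBG1 was -0.20 and that of TUBGCP2 -0.20 (adjusted p = 0.033 and 0.024 with the block), so the call on both depends on that adjustment, and TUBGCP2 turned from 0.02 to lower. TUBGCP6, the largest subunit, was higher in every knockdown library, at 17.2, 17.9 and 18.8 TPM in the controls and 19.1, 21.3 and 22 TPM after knockdown, with a change of 0.20 ± 0.06 (adjusted p = 0.051 with the block). That value turned to -0.04 without the GC-content trend, while limma-voom, upper-quartile scaling and removal of the length trend, each with the block, called it higher. TUBGCP6 and NUMA1 are named here after their values were seen.

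Augmin was the role group with the smallest share of members that fell, 2 of 8, no higher than the 25.0% of all genes tested that were lower. All 8 estimates were negative (median -0.23). HAUS6, the subunit that binds NEDD1, was at 9.47, 4.24 and 4.31 TPM in the controls and 5.02, 1.74 and 2.61 TPM after knockdown. Control replicate 1 was far above the other controls, knockdown replicate 1 lay above control replicates 2 and 3, and the groups overlapped. The change was -0.76 ± 0.12 (adjusted p = 0.25 without and 0.0088 with the block).

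HAUS1 had 33.2, 25.2 and 22 TPM in the controls and 26.1, 18.7 and 17.7 TPM after knockdown. The groups overlapped through knockdown replicate 1, the change was -0.35 ± 0.06 (adjusted p = 0.3 without and 0.011 with the block), and it was -0.12 and no longer called without the GC-content trend (adjusted p = 0.13). HAUS4, the most abundant subunit, had 67.2, 79.5 and 74.5 TPM in the controls and 53.3, 78.7 and 74.3 TPM after knockdown, with overlap and no call (-0.12 ± 0.08, adjusted p = 0.29 with the block). HAUS2, HAUS3, HAUS5, HAUS7 and HAUS8 had changes between -0.31 and -0.05 and did not pass. HAUS3, HAUS4 and HAUS7 overlap another protein-coding gene on the same strand in GENCODE 29, and their counts are uncertain for that reason.

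Of the 6 genes of the CKAP5-TACC and plus-end group, 5 fell, with a median of -0.57. CKAP5, the microtubule polymerase chTOG, was at 78.3, 63.2 and 72.3 TPM in the controls and 42.6, 33 and 30.4 TPM after knockdown. The groups were far apart, with the highest knockdown library 20.6 TPM below the lowest control. The mean was 71.3 ± 7.62 TPM (SD, n = 3) in the controls and 35.3 ± 6.43 TPM (SD, n = 3) after knockdown, and the log2 fold change was -1.0 ± 0.08. It was the only member called without the block (adjusted p = 0.045, and 0.0044 with it), and its change after removal of the GC-content trend was -0.86.

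TACC1 and TACC3 belong to the family that carries CKAP5 to centrosomes and spindle microtubules. TACC1 was at 19.1, 16.7 and 17.7 TPM in the controls and 12.7, 8.69 and 9.42 TPM after knockdown, without overlap, and changed by -0.75 ± 0.09 (adjusted p = 0.062 without and 0.006 with the block). TACC3, the most abundant of the family, had 127, 94.9 and 96.2 TPM in the controls and 109, 88.8 and 83.2 TPM after knockdown. Here the ranges overlapped, and the smaller change of -0.17 ± 0.05 passed with the block only (adjusted p = 0.49 without and 0.038 with it) and neither with upper-quartile scaling nor with limma-voom, both with the block. The plus-end stabilizers CLASP1 and CLASP2 fell by 0.49 and 0.65 without overlap, and TACC2 had a change of -0.05 (adjusted p = 0.58 with the block).

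Spindle assembly and pole genes fell in 5 of 6 cases, with a median of -0.88. ASPM, which controls microtubule minus ends at the poles, was at 18.3, 7.43 and 7.93 TPM in the controls and 6.90, 1.87 and 2.53 TPM after knockdown. The highest knockdown library lay only 0.527 TPM below the lowest control, and replicate 1 was the highest library of both groups. The knockdown mean was 0.336 of the control mean, the log2 fold change was -1.39 ± 0.10, and the adjusted p was 0.13 without and 0.0044 with the block.

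NUSAP1, a nucleolar and spindle-associated protein that bundles microtubules, was at 80.4, 55.0 and 58.3 TPM in the controls and 41.3, 26.4 and 29.5 TPM after knockdown. The groups did not overlap and the change was -0.98 ± 0.05 (adjusted p = 0.066 without and 0.0035 with the block). TPX2, the activator of Aurora A and the most abundant of the 47 members, had 238, 175 and 174 TPM in the controls and 149, 131 and 119 TPM after knockdown. It fell by 0.55 ± 0.06 without overlap (adjusted p = 0.095 without and 0.0052 with the block). CKAP2 and HMMR, both microtubule-binding proteins of the spindle, fell by 0.89 and 0.86. NUMA1, which focuses spindle poles together with dynein, was at 122, 130.3 and 141 TPM in the controls and 117, 147 and 160.1 TPM after knockdown. Its values overlapped, its change was 0.10 (adjusted p = 0.27 with the block) and -0.12 without the GC-content trend, and limma-voom and removal of the length trend, each with the block, called it higher.

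All 4 midzone and cytokinesis genes fell, with a median of -0.99. ECT2, the exchange factor that activates RhoA at the cell equator, was at 53.0, 29.7 and 30.0 TPM in the controls and 25.6, 8.46 and 9.93 TPM after knockdown. The groups did not overlap, and the knockdown mean was 0.391 of the control mean. On log2(TPM + 1) ECT2 had the largest change of the 47 members, -1.41 ± 0.13 (adjusted p = 0.11 without and 0.0046 with the block). ASPM changed more in the ratio of means (0.336 against 0.391) and in limma-voom with the block (-1.53 against -1.34 for ECT2).

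CEP55, which recruits the abscission machinery to the midbody, had 94.0, 44.9 and 52.7 TPM in the controls and 48.5, 21.4 and 25.3 TPM after knockdown. Knockdown replicate 1 lay above control replicate 2, and the change was -1.0 ± 0.05 (adjusted p = 0.16 without and 0.0035 with the block). PRC1, the bundler of antiparallel midzone microtubules, had 150.0, 108 and 110.1 TPM in the controls and 98.2, 76.9 and 71.6 TPM after knockdown. The groups did not overlap, and the change was -0.57 ± 0.05 (adjusted p = 0.11 without and 0.0044 with the block). ANLN, the scaffold of the contractile ring, fell by 0.98. PRC1 and NUSAP1 each overlap a second protein-coding gene model on the same strand.

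**Figure D3:**
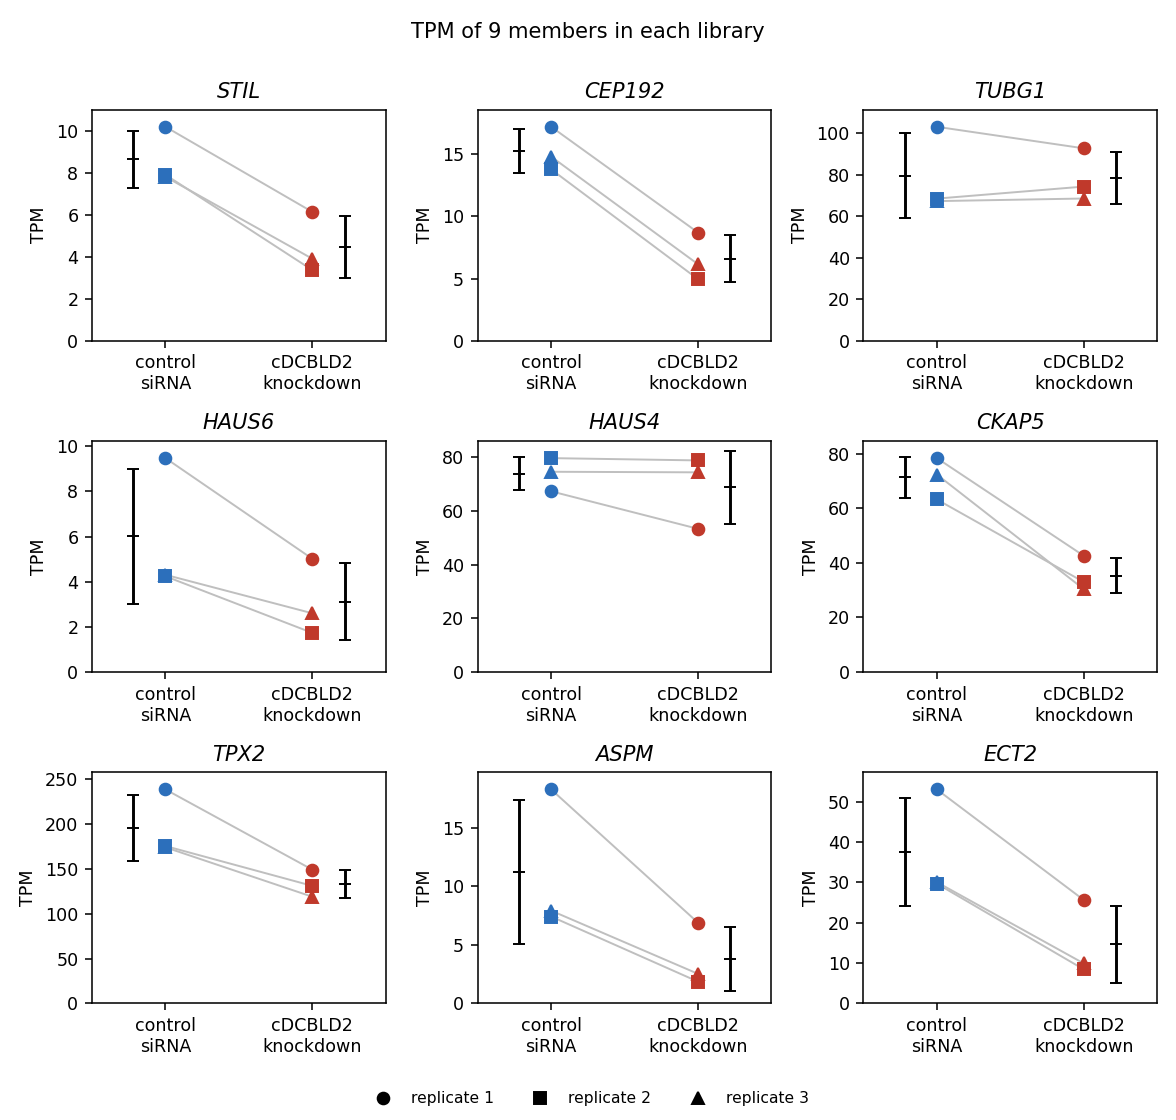
TPM (y axis, from 0) of 9 members in each control and knockdown library. Symbols mark replicate numbers 1, 2 and 3, grey lines join same-numbered libraries, and black bars give the mean ± SD of 3 libraries. For STIL, CEP192, CKAP5, TPX2, ASPM and ECT2 every knockdown library lies below every control, the ranges of HAUS6, HAUS4 and TUBG1 overlap, and replicate 1 is the highest control library in each panel except that of HAUS4.

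The size of the change followed the GC content of the transcript. Across the 47 members the Spearman correlation of log2 fold change with GC content was 0.72, and across 12949 genes tested it was 0.65. The points share the same 6 libraries, so these values describe and do not test. The 15 members below 40% GC had a median change of -0.78 (all genes in that range -0.42), the 14 between 40% and 45% had -0.80 (all genes -0.30), the 6 between 45% and 50% had -0.49 (all genes -0.14), and the 12 at 50% or more had -0.07 (all genes 0.06). Of these 12, only TACC3 fell with the block. In each range the median of the members was below that of all genes.

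Once the GC-content trend was taken out of each library, the median change of the members was -0.39, and 36 fell and 0 rose with the block, against a background of 30.0% lower and 5.87% higher. At an unadjusted p under 0.05 there were also 0 higher in that fit. Of the 33 members that fell before, 29 were called again, SASS6, CEP152, CEP135 and HAUS1 were not, and CEP164, PCNT, TUBG1, TUBGCP2, HAUS5, HAUS7 and TACC2 were called in addition. ASPM (-1.07) and ECT2 (-1.09) kept a change beyond 1. Upper-quartile scaling moved the median of all genes from -0.08 to 0.05 and turned the blocked calls among all genes from 3501 lower and 1390 higher to 2103 lower and 2896 higher, while the members went from 33 lower and 0 higher to 32 lower and 1 higher. In all, 28 members were lower under the block with plain TPM, with the GC-content trend removed, with upper-quartile scaling and with limma-voom. What part GC content and the shared height of replicate 1 had in the changes of the members was not tested.

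**Figure D4:**
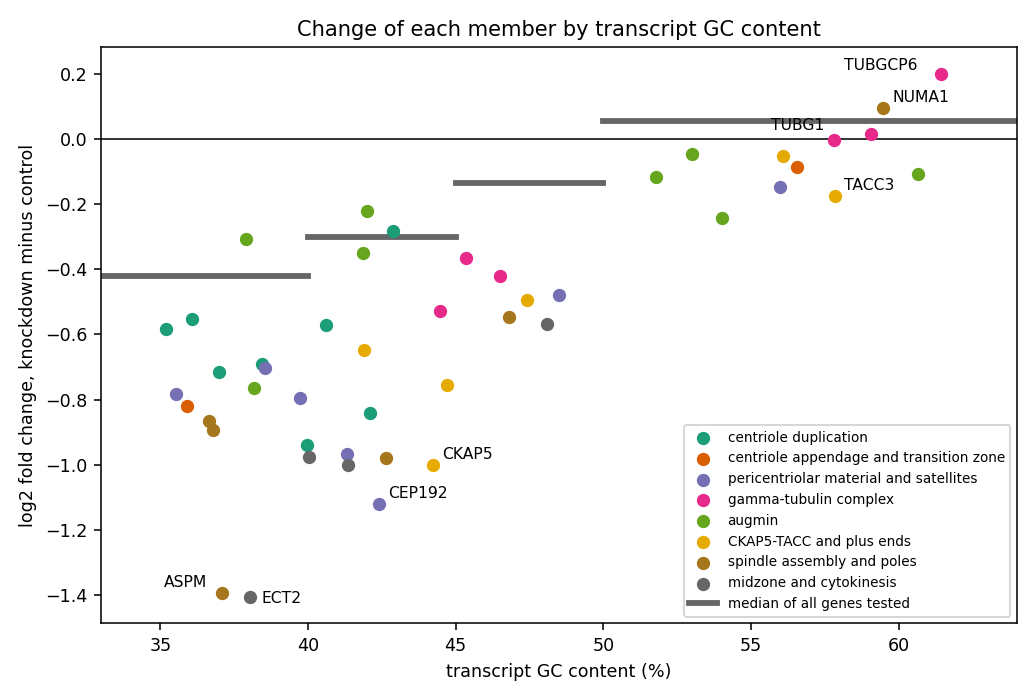
Log2 fold change of each member (y axis, knockdown minus control) against transcript GC content in percent (x axis), coloured by role group. Grey bars are medians of all genes tested in the same GC range, from -0.42 below 40% to 0.06 at 50% or more. Members below 50% GC lie mostly below the grey bars, and those at 50% or more lie near 0.

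The members were read beside 110 further centrosome, spindle, cytokinesis and tubulin genes, of which 104 were tested. Of these, 55 fell and 13 rose with the block (25.0% and 9.94% of all genes), and the median change was -0.34. Without the block, CEP85 and POC1B were called lower and none higher by limma (0.629% and 0.250% of all genes). At an unadjusted p under 0.05 there were 43 lower and 5 higher, where 19.4% of all genes were lower. CEP85, an inhibitor of the kinase NEK2 at the centrosome, was at 35.8, 33.3 and 32.5 TPM in the controls and 19.7, 23.6 and 19.0 TPM after knockdown (change -0.69 ± 0.08, adjusted p = 0.049 without and 0.0063 with the block). POC1B, a centriole wall protein that overlaps GALNT4 on the same strand, had 30.0, 29.9 and 29.9 TPM in the controls and 20.1, 19.3 and 19.0 TPM after knockdown (-0.59 ± 0.06, adjusted p = 0.044 without and 0.0046 with the block). Neither gene overlapped between groups.

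The largest falls in this list were those of DLGAP5, MAP7D3 and ALMS1. DLGAP5 (HURP), which stabilizes kinetochore fibres, was at 41.6, 23.7 and 22.7 TPM in the controls and 20.6, 6.25 and 9.13 TPM after knockdown, and changed by -1.33 ± 0.15 (adjusted p = 0.0059 with the block). MAP7D3, a microtubule-binding protein, had 14.8, 12 and 12.3 and 8.4, 4.0 and 4.71 TPM and changed by -1.12 ± 0.14 (adjusted p = 0.0065). ALMS1, a protein of the centriole base, had 6.82, 3.94 and 4.57 and 3.45, 1.03 and 1.48 TPM and changed by -1.09 ± 0.13 (adjusted p = 0.0064). None of these overlapped between groups.

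By sublist, 20 of 37 tested centriole and appendage genes fell and 0 rose, 8 of 11 spindle kinases and their activators fell and 1 rose, 14 of 22 spindle and plus-end proteins fell and 1 rose, 5 of 10 nucleation genes fell and 1 rose, and 8 of 14 cytokinesis genes fell and 3 rose. The alpha- and beta-tubulin genes, which encode the microtubule subunits, went the other way. Of 10, 0 fell and 7 rose with the block (median 0.21). With the GC-content trend removed, 3 rose and 1 fell. TUBB2A was at 73.8, 57.2 and 57.9 TPM in the controls and 120.1, 76.9 and 79.1 TPM after knockdown, a change of 0.52 ± 0.07 (adjusted p = 0.16 without and 0.0069 with the block) without overlap. TUBA4A was at 164, 127 and 124 and 242, 165 and 165 TPM (0.44 ± 0.05, adjusted p = 0.0057 with the block). TUBB3 was at 120.3, 69.7 and 77.1 and 131, 99.7 and 109 TPM with overlap (0.38 ± 0.09, adjusted p = 0.024 with the block), and it was not called without the GC-content trend (adjusted p = 0.16). Tubulin paralogs share sequence, so how reads were divided among them is uncertain.

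Cell-cycle markers that are not members moved in the same direction. The S phase markers were PCNA, MCM2, MCM5, MCM6, TYMS, RRM2, CDC6, GINS2, SLBP and CCNE2. The G2/M markers were MKI67, TOP2A, CCNA2, CCNB1, CCNB2, CDK1, BUB1, CDC20, CENPF and UBE2C. TOP2A (-1.45) was picked by the paper from the most downregulated mRNAs of its PolyA-Seq comparison in HCCLM3-SR cells. Its fall here is therefore not independent of that choice. All 20 had a negative change, where 8718 of 13980 genes tested did. With the block 10 of 10 G2/M markers fell (median -0.69) and 6 of 10 S phase markers (median -0.27), with 0 of the 20 higher (25.0% and 9.94% of all genes). The S phase count was 4 with upper-quartile scaling, 4 with limma-voom and 8 with the GC-content trend removed, each with the block. The G2/M count was 10 in each of these fits. Their backgrounds were 2103 of 13980 genes, 20.5% and 30.0% lower. Without the block limma called none of the 20, and at an unadjusted p under 0.05 there were 11 lower and 0 higher, where 19.4% of all genes were lower. The summed level of the G2/M markers was 1233, 859 and 883 TPM in the controls and 791, 577 and 549 TPM after knockdown, and that of the S phase markers was 1506, 1049 and 1039 TPM and 1187, 934 and 849 TPM. Replicate 1 was the highest library of its group in both sums. The part of the cell-cycle markers in the changes of the members was not tested.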

How the data were processed

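PolyA-Seq libraries were made from total RNA of HCCLM3-SR cells, 3 with cDCBLD2 knockdown and 3 with control siRNA. The authors deposited TPM values per gene, and the submitters' processing notes name fastp 0.20.1, HISAT2 2.1.0, StringTie 2.0 and hg38, while the annotation and strand setting are not given in the sources used here. Depth limits the least abundant members, and TPM itself carries no depth. Reads were therefore recovered from ratios of TPM values between libraries with a common divisor per gene unknown, so recovered totals are lower bounds. All 6 sample columns were used.

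Groups came from the sample labels. Log2(TPM + 1) was fitted for the 13980 genes whose mean reached 1 TPM with limma 3.58.1 (R 4.3.3, moderated test with a mean-variance trend) over the 6 libraries, with Benjamini-Hochberg adjustment over all genes tested. Log2 fold changes are on that scale and understate the change of genes at a few TPM. The methods in the main text of the paper name no block, and its supplementary methods were not used here, so the fit without one came first. Same-numbered libraries correlated at 0.56, 0.343 and 0.362 in their deviations, where 0.1 was required of each, and the replicate number was then used as a block. An exact permutation test of 3 against 3 libraries cannot give a two-sided p below 0.1, and 23 members reached that value. They were the members without overlap, 22 lower and 1 higher, where the background was 22.3% and 9.58% of all genes.

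GC content and length were taken from GENCODE 29, where 25655 of 38637 gene symbols matched directly and 523 through an older symbol, and 12949 of the genes tested had values. Each library's loess trend (span 0.5) was removed on the log2 scale. Alternatives were upper-quartile scaling, other filters and pseudocounts, removal of either trend, limma-voom on recovered reads, and leaving out libraries. Upper-quartile scaling with the block was added after seeing the data. Fits were tested on simulated data. In every role group the 2 largest changes past the threshold and the most abundant member are given by library, and of the other listed genes those called without the block and the 3 lowest and 3 highest called with it. The members and lists were chosen with earlier results of these data known.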

Additional observations from a re-analysis of the deposited data

How the results depend on the processing

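A call in the direction opposite to plain TPM was made for 1 of the 47 members: TUBGCP2, at 0.02 in plain TPM, was called lower at -0.20 with the GC-content trend removed and the replicate block. The count of members lower without a block (1, with 0 higher) moved most with the replicate block. The replicate numbers were taken to pair the libraries from correlations alone, since the labels do not say what a number marks, and the paired fit is printed beside the results. With the replicate block there were 33 members lower, 4 past both thresholds, and 55 listed pathway genes lower and 13 higher, against 2 and 0 without it. Of all genes tested, 25.0% were lower and 9.94% higher with that block, and 0.629% and 0.250% without it. With the GC-content trend removed the counts were 2 members lower and 0 past both thresholds, and 1 pathway gene lower. Of 12949 genes, 235 were lower and 35 higher in that fit. With that trend removed and the replicate block the counts were 36, 2 and 54, with 4 pathway genes higher (30.0% of all genes lower and 5.87% higher). With the transcript-length trend removed there were 2 members lower and 0 past both thresholds, with 196 calls in either direction among 12949 genes. With that trend removed and the replicate block there were 34 members lower, 2 higher and 4 past both thresholds, and 59 pathway genes lower and 11 higher. Of the 12949 genes, 3795 were lower and 1364 higher in that fit. Upper-quartile scaling gave 2 members lower and 0 past both thresholds, and 1 pathway gene lower and 1 higher (104 lower and 215 higher of 13980 genes). With the replicate block it gave 32 members lower, 1 higher and 2 past both thresholds, and 43 pathway genes lower and 15 higher (2103 lower and 2896 higher of 13980 genes). Limma-voom on recovered reads gave 4 members lower, and 6 pathway genes lower and 1 higher (452 calls in either direction among 15018 genes). With the replicate block it gave 31 members lower, 2 higher and 6 past both thresholds, and 56 pathway genes lower and 13 higher (20.5% of all genes lower and 17.5% higher). Among the 13980 genes, 105 were lower past both thresholds with the block in plain TPM. That count was 39 with the GC-content trend removed, 65 with the length trend removed, 47 with upper-quartile scaling and 131 with limma-voom. It was not made for other filters or with libraries left out. Without a filter there were 0 members lower, 0 past both thresholds and 0 pathway genes lower, and with a mean of at least 5 TPM there were 2 members lower and 2 past both thresholds. These fits made 4 calls among 25278 genes and 321 among 10245 genes. Leaving out 1 library gave 0 to 28 members lower, 0 to 16 past both thresholds, 0 to 42 pathway genes lower and 0 to 3 higher, the upper values all without knockdown replicate 1. Among all 13980 genes there were 0 to 3420 calls, the upper value also without knockdown replicate 1. With the replicate block, leaving out replicate 1, 2 or 3 gave 33, 21 or 13 members lower, 2, 0 or 0 higher and 8, 4 or 4 past both thresholds, with 61, 23 or 12 pathway genes lower and 12, 3 or 2 higher. The share of all genes lower was 28.0%, 7.75% or 3.19%. The median change of the members was -0.57, and it was -0.47 with upper-quartile scaling (with or without the replicate block), -0.68 with a pseudocount of 0.1, -0.39 with the GC-content trend removed (with or without the replicate block) and -0.77 to -0.42 with 1 library left out. The cause of these differences was not tested. Fits with samples left out have fewer libraries to estimate the spread, and without a block their counts of members lower went both up (28) and down (0). Among single genes, the sign of 12 members changed under at least 1 alternative, all with a change between -0.31 and 0.20 in plain TPM: CEP164, PCNT, TUBG1, TUBGCP2, TUBGCP6, HAUS2, HAUS3, HAUS4, HAUS7, HAUS8, TACC2 and NUMA1. The shallowest member, CEP135, had 34 to 110 recovered reads per library.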
